A study of Arabidopsis thaliana with 11 samples.

Results

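Cytochrome P450 genes are described here across root pericycle and cortex cells of Arabidopsis, with and without salt. The members are the genes whose symbol starts with CYP and a family number of 2 or 3 digits and that are named alone by at least 1 probe set. The pattern matched 26 genes. Of these, CYP71 and CYP59 are cyclophilins by their RefSeq names and were left out, which left 24 P450 genes of the 13356 genes that had a probe set of their own. Each of the 24 had exactly 1 such probe set, so no choice between probe sets was needed. RefSeq gives 237 genes a P450 symbol, so the members are a small part of the superfamily, and the others were not analysed here.

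Seedlings were 7 days old in every group, and their roots were digested for 30 min before the fluorescent protoplasts were sorted. The pericycle groups, from line J2731, were a salt group with 3 arrays and a control group with 2. The cortex groups, from line J1551, were a salt group with 3 arrays and a control group with 3. Salt seedlings grew for 5 days without salt and 2 days with it, with NaCl at 25 mM and then 50 mM and CaCl2 raised by 0.22 mM and then 0.375 mM, while control seedlings had all 7 days without it. The seedlings of 1 tank made 1 biological sample. Each cell type came from a single marker line, so cell type and line cannot be told apart.

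P450 enzymes are haem proteins of the endoplasmic reticulum, and in plants also of the plastid, that put an oxygen atom into a small molecule with electrons passed on by a reductase. Plants use them to make and inactivate hormones, to build lignin, suberin and sterols and to make defence compounds such as glucosinolates and camalexin. Family numbers group enzymes by sequence, and CYP71 is among the largest plant families and holds many defence enzymes.

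Of the 24 members, 19 belong to the CYP71B subfamily and the other 5 are CYP51G2, CYP718, CYP78A9, CYP79A2 and CYP84A4. The CYP71B genes lie in rows of neighbours. CYP71B16 (AT3G26150), CYP71B21 (AT3G26190), CYP71B22 (AT3G26200), CYP71B23 (AT3G26210), CYP71B24 (AT3G26230), CYP71B25 (AT3G26270), CYP71B26 (AT3G26290), CYP71B34 (AT3G26300), CYP71B35 (AT3G26310), CYP71B36 (AT3G26320) and CYP71B37 (AT3G26330) fall within 25 consecutive annotated genes, 18 of them named CYP71B. CYP71B27 (AT1G13070), CYP71B28 (AT1G13090) and CYP71B29 (AT1G13100) span 5 annotated genes, as do CYP71B5 (AT3G53280), CYP71B30P (AT3G53290) and CYP71B31 (AT3G53300). Only CYP71B6 (AT2G24180) and CYP71B38 (AT3G44250) stand apart from other members of the subfamily. RefSeq lists CYP51G2 and CYP71B27 as transcribed pseudogenes. Close paralogs can share hybridisation to a probe set, which was not tested.

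The pericycle arrays varied more than the cortex arrays. Pericycle salt replicate 1 had correlations of 0.917 and 0.919 with the rest of its group and the lowest array weight, 0.171, against 0.436 to 2.98 on the other arrays. The 3' minus 5' log2 difference of control probe sets is a sign of RNA quality. For GAPDH it was 1.10 to 1.35 in pericycle salt, 1.43 to 1.49 in pericycle control, 1.01 to 1.40 in cortex salt and 1.10 to 1.25 in cortex control samples. The GAPDH difference was higher in both pericycle control samples than in every pericycle salt and every cortex control sample. For ubiquitin it was 2.41 to 2.69 in pericycle salt, 2.42 to 2.60 in pericycle control, 2.60 to 2.83 in cortex salt and 2.34 to 2.56 in cortex control samples, higher in every cortex salt than in every cortex control sample. A listed gene is called measured here where the platform's probe table gives it a probe set of its own, and the others may still be on the array. Of 7 listed pericycle markers, LBD16 and LBD29 were measured. Their mean was 3.99 to 4.31 (log2) in pericycle salt, 4.02 to 4.35 in pericycle control, 1.75 to 1.91 in cortex salt and 1.90 to 2.06 in cortex control samples. LBD16 carries that separation, with pericycle minus cortex at 3.88 ± 0.302 without salt and 4.37 ± 0.27 under salt (limma, adjusted p = 4.93e-05 and 9.03e-06), while LBD29 is dim and did not pass (adjusted p = 0.0905 and 0.465). The only 1 of 4 listed cortex markers measured, JKD, was dim. It was at 1.68 to 1.93 in pericycle salt, 2.22 and 2.52 in pericycle control, 1.65 to 1.85 in cortex salt and 1.80 to 1.86 in cortex control samples. Without salt both pericycle samples lay above the cortex samples, against the label, with a difference of 0.53 ± 0.165 that did not pass (limma, adjusted p = 0.059), so the cortex label rests on the marker line. Of 12 listed root hair markers, which belong to neither sorted cell type, EXPA7 and EXPA18 were measured. Their mean was 2.57 to 4.36 in pericycle salt, 3.61 to 4.33 in pericycle control, 2.82 to 3.90 in cortex salt and 4.79 to 5.30 in cortex control samples. The phloem marker OPS was higher in pericycle than in cortex. The differences were 1.67 ± 0.363 without salt and 2.82 ± 0.325 under salt (limma, adjusted p = 0.0122 and 2.69e-04). Its part in the cell type results below was not tested.

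Most members gave little signal. A mean under 2.81 on the log2 scale, the 40th percentile of all probe sets, is called dim here, and 17 of the 24 members (70.8%) were dim. For 12 of them every array was under that limit, with means of 1.48 to 2.12 over all arrays. These 12 were CYP79A2, which makes the aldoxime precursor of benzylglucosinolate from phenylalanine, and CYP71B16, CYP71B21, CYP71B24, CYP71B26, CYP71B28, CYP71B30P, CYP71B31, CYP71B34, CYP71B35, CYP71B36 and CYP71B38. None of the 12 passed in any comparison at an adjusted p under 0.05 (limma, Benjamini-Hochberg over all 22746 probe sets), and the largest difference among them was 0.56. Few dim probe sets were called at all, with shares of 0.121% to 3.55% by comparison. Differences near the floor can understate a change. In sorted samples, fewer cells with a transcript and less RNA per cell cannot be told apart.

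**Figure D1:**
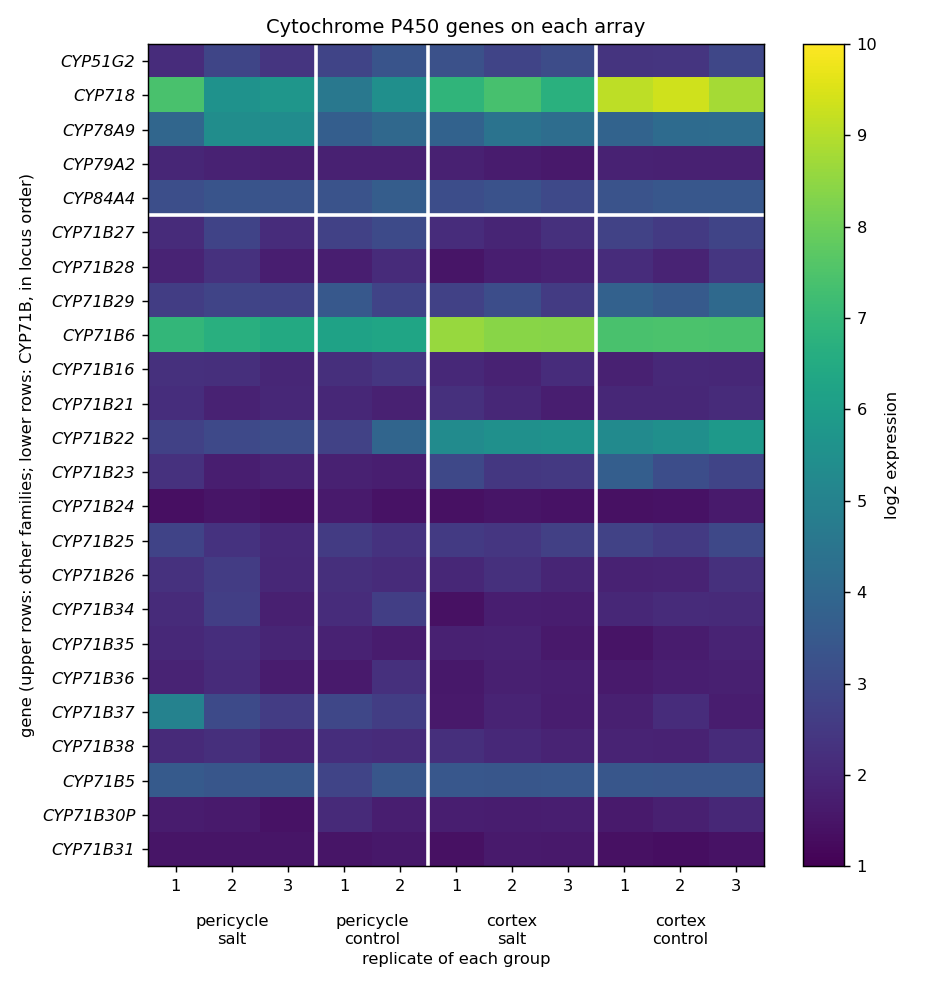
Log2 expression of the 24 P450 genes (rows) on each of the 11 arrays (columns, by group and replicate), with the CYP71B genes in locus order below the other families. CYP718, CYP71B6 and CYP71B22 stand out from rows that are mostly dark, and CYP71B37 is bright on pericycle salt replicate 1 at 5.00.

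With salt in cortex cells, 3 of the 24 members passed, against 4.16% of all probe sets: CYP71B6 rose, and CYP718 and CYP71B29 fell. The ubiquitin 3' minus 5' difference given above also separates these cortex groups, and its part in the 3 calls was not tested. With salt in pericycle cells 0 of 24 passed in limma, against 1.99% of all probe sets, and 4 of 24 had an unadjusted p under 0.05, against 16.0%. Pericycle against cortex gave 4 members without salt, against 14.9% of all probe sets, and 3 under salt, against 17.9%. The shares in the cell type comparisons, 16.7% and 12.5% of the members, were near those backgrounds, though a larger share of the members is dim. Of the 7 members at or above the dim limit, 3 passed without salt and 2 under salt, against 22.5% and 27.8% of such probe sets. Of the 17 dim members 1 passed in each, against 3.55% and 3.03%. With salt in cortex, 3 of those 7 and 0 of the 17 passed, against 6.45% and 0.725%. The GAPDH 3' minus 5' difference given above also separates the 2 control groups, and its part in the 4 calls without salt was not tested. The members that passed in at least 1 comparison were CYP718, CYP71B6, CYP71B22, CYP71B23, CYP71B29 and CYP71B37. The share of all probe sets that did so was not counted. The median log2 difference of the 24 members lay between -0.05 and 0.09 in the 5 comparisons, beside -0.02 to 0.02 over all probe sets.

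**Figure D2:**
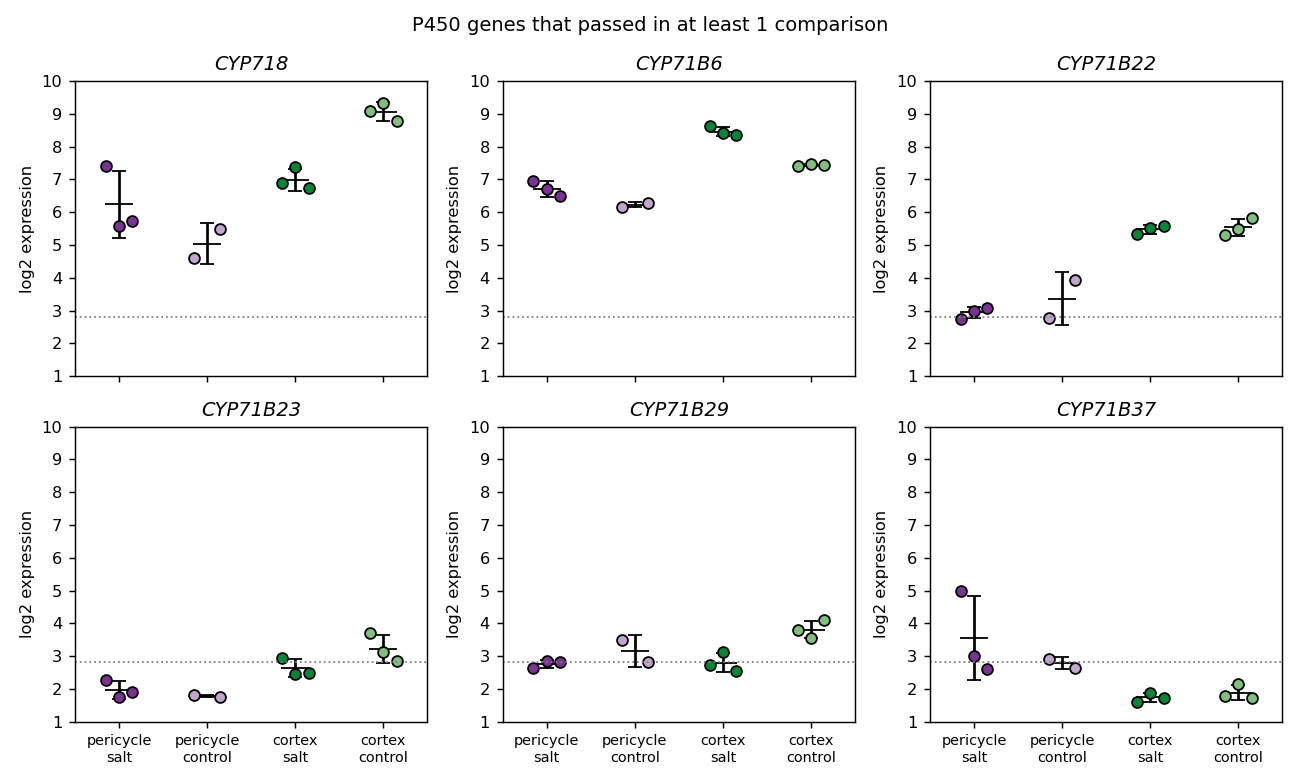
Log2 expression of the 6 P450 genes that passed in at least 1 comparison, with 1 point per array, the mean as a horizontal line and the SD as an error bar; the dotted line is the dim limit of 2.81. CYP718 ran from 8.78 to 9.34 in cortex control samples and lower in the other groups, and CYP71B6 and CYP71B22 were higher in cortex than in pericycle in both conditions.

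CYP718 (AT2G42850), the only gene of its family among the members, varied most among the members, from 4.59 to 9.34. It was at 7.42, 5.58 and 5.74 in pericycle salt samples and at 4.59 and 5.49 in pericycle control samples. It was at 6.88, 7.36 and 6.73 in cortex salt samples, against 9.09, 9.34 and 8.78 in cortex control samples. The cortex groups did not overlap, every salt array being lower, and the pericycle groups did not overlap either, with every salt array higher, though 5.58 in salt and 5.49 in control samples lay close together.

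In cortex cells CYP718 fell with salt to a mean of 6.99 ± 0.332, against 9.07 ± 0.282 in control samples (SD, n = 3 each). The log2 difference was -2.08 ± 0.454 (limma SE), a size of 4.22-fold (adjusted p = 0.032). Settings under which it missed the threshold included leaving out any 1 of the 6 cortex arrays, with adjusted p up to 0.145 over all alternatives. The mean of the root hair markers EXPA7 and EXPA18 was also lower in every cortex salt sample than in the cortex control samples, as given above, without either gene passing (adjusted p = 0.228 and 0.0821). Their part in this result was not tested.

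Without salt, CYP718 was lower in pericycle, at a mean of 5.04 ± 0.632 (SD, n = 2), than in cortex, at 9.07 ± 0.282 (n = 3). The log2 difference was -4.03 ± 0.507, a size of 16.3-fold (limma, adjusted p = 6.82e-04). This call held under all 18 alternatives. Of the root hair markers, EXPA7 was lower in both pericycle control samples than in the cortex control samples (-1.76 ± 0.534; adjusted p = 0.0533), while EXPA18 overlapped (-0.26 ± 0.566; adjusted p = 0.839), and their part was not tested. Under salt the means were 6.25 ± 1.02 in pericycle and 6.99 ± 0.332 in cortex (SD, n = 3 each), the arrays overlapped, and the difference of -0.74 ± 0.454 did not pass (limma, adjusted p = 0.324). Without pericycle salt replicate 1, the array at 7.42, it was -1.33 ± 0.295 and passed (adjusted p = 0.012), and with array weights it was -1.13 ± 0.35 and passed (adjusted p = 0.0366).

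In pericycle cells the CYP718 salt difference was 1.21 ± 0.507 and did not pass (limma, adjusted p = 0.277), and without pericycle salt replicate 1 it was 0.62 ± 0.323. The difference of both salt responses, pericycle minus cortex, takes in all 4 groups. For CYP718 it was 3.29 ± 0.68 and missed the threshold (adjusted p = 0.0615). It passed in 6 of 17 alternatives, among them array weights (adjusted p = 0.0447) and leaving out pericycle salt replicate 1 (2.70 ± 0.417, adjusted p = 0.0183). It also passed when pericycle salt replicate 2 or 3 was left out. Of the 24 members, 0 passed in this comparison in limma, against 0.835% of all probe sets, and 3 had an unadjusted p under 0.05, against 12.4%. The largest positive differences of responses after CYP718 were 0.95 ± 0.528 for CYP78A9 and 0.91 ± 0.742 for CYP71B37, and without pericycle salt replicate 1 that of CYP71B37 was 0.18 ± 0.281, below those of CYP71B29 (0.69 ± 0.36), CYP71B23 (0.64 ± 0.358) and others. The most negative were -1.14 ± 0.36 for CYP51G2, -0.55 ± 0.24 for CYP71B6 and -0.36 ± 0.411 for CYP71B22.

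CYP71B6 (AT2G24180) encodes the enzyme that turns indole-3-acetonitrile into indole-3-carbaldehyde and indole-3-carboxylic acid, products of indole defence metabolism. It was at 6.95, 6.70 and 6.48 in pericycle salt samples, against 6.17 and 6.29 in pericycle control samples. In cortex it was at 8.62, 8.41 and 8.35 in salt samples, against 7.40, 7.47 and 7.43 in control samples. Every salt array was above every control array within each cell type, and every pericycle array was below every cortex array.

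In cortex cells CYP71B6 rose with salt by 1.03 ± 0.16 on the log2 scale, 2.04-fold (limma, adjusted p = 6.14e-03). In pericycle cells the difference of 0.48 ± 0.179 did not pass (limma, adjusted p = 0.22), and the difference of responses, -0.55 ± 0.24, did not either (adjusted p = 0.388). It was lower in pericycle than in cortex, with log2 differences of -1.20 ± 0.179 without salt (limma, adjusted p = 1.69e-03) and -1.75 ± 0.16 under salt (adjusted p = 6.80e-05). Without pericycle salt replicate 1 the difference under salt was -1.87 ± 0.151. These 3 calls held under each of the 18 alternatives, and the highest adjusted p among them was 0.0433. The other listed camalexin and indole defence P450s, 4 of 5, were not among the members.

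CYP71B29 (AT1G13100) was at 2.63, 2.85 and 2.82 in pericycle salt samples and at 3.50 and 2.81 in pericycle control samples, which overlapped. In cortex it was at 2.73, 3.11 and 2.56 in salt samples, against 3.79, 3.55 and 4.09 in control samples, with no overlap. It fell with salt in cortex cells, with a log2 difference of -1.01 ± 0.23, a size of 2.01-fold (limma, adjusted p = 0.0391). Cortex salt and pericycle values near the dim limit mean that its differences may be too small. Settings that ended the call included leaving out any 1 of the 6 cortex arrays, quantile normalization, and trend and robust settings of eBayes, with adjusted p up to 0.185.

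The genes beside CYP71B29 stood lower in every cortex salt array as well, without passing with all arrays fitted. CYP71B27, listed as a transcribed pseudogene, was at 2.16, 1.93 and 2.25 in cortex salt samples, against 2.78, 2.52 and 2.84 in cortex control samples (-0.60 ± 0.216; limma, adjusted p = 0.199). It passed with array weights (adjusted p = 0.0192) and with only the cortex groups fitted (adjusted p = 0.0178). CYP71B28 was at 1.53, 1.77 and 1.86 in cortex salt samples, against 2.15, 1.88 and 2.44 in cortex control samples (-0.44 ± 0.209; adjusted p = 0.383). Both are dim, and CYP71B28 was under the limit on every array. In pericycle cells the differences were -0.38 ± 0.257 for CYP71B29, -0.53 ± 0.241 for CYP71B27 and 0.04 ± 0.234 for CYP71B28, and none passed (limma). Of all 24 members, 6 had every cortex salt array below every control array, against 14.8% of all probe sets, and CYP71B34, CYP84A4 and CYP718 were the others.

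**Figure D3:**
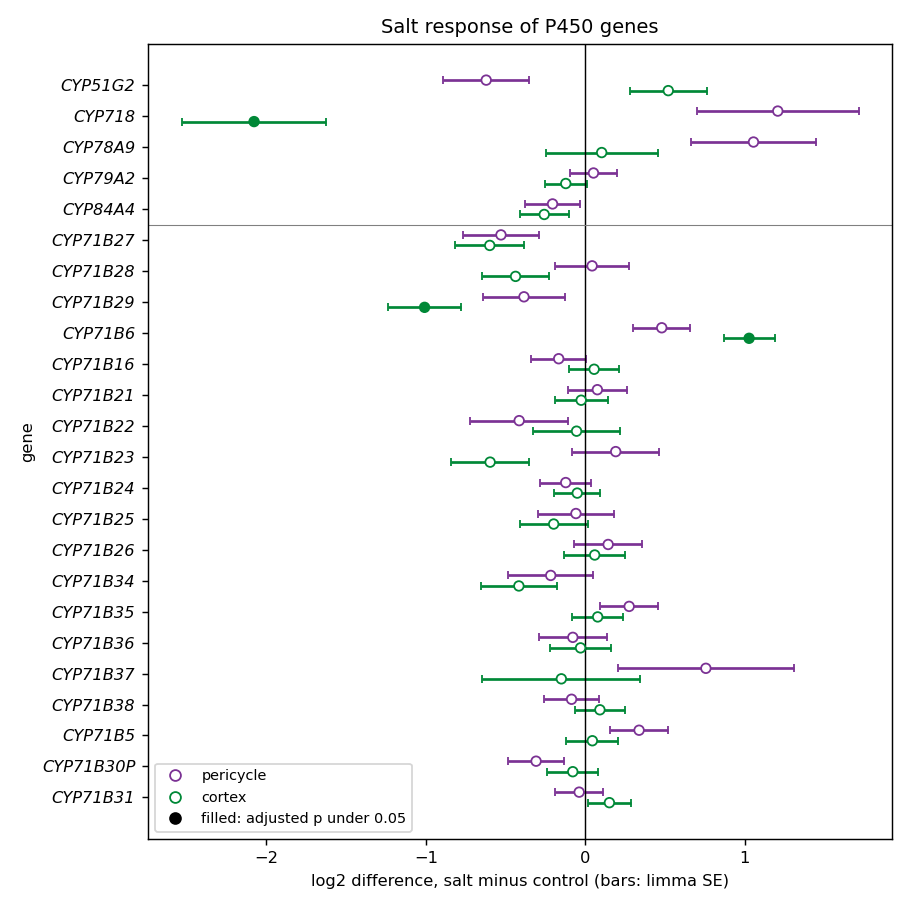
Log2 difference of salt minus control for the 24 P450 genes, pericycle above cortex in each row, with limma SE as bars and filled points where the adjusted p was under 0.05. The 3 filled points are all in cortex: CYP718 at -2.08, CYP71B29 at -1.01 and CYP71B6 at 1.03.

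With salt in pericycle cells, the largest positive differences were those of CYP718, CYP78A9 and CYP71B37 (0.76 ± 0.553, and 0.03 ± 0.218 without pericycle salt replicate 1). The most negative were those of CYP51G2, CYP71B27 and CYP71B22 (-0.41 ± 0.306), and none of the 6 passed (limma). CYP78A9 (AT3G61880), whose activation enlarges fruits and seeds, was at 3.98, 5.41 and 5.39 in pericycle salt samples and at 3.69 and 4.05 in pericycle control samples. It was at 3.85, 4.44 and 4.23 in cortex salt samples, against 3.88, 4.15 and 4.17 in cortex control samples. Pericycle salt replicates 2 and 3 were above all other arrays, and replicate 1 lay among them.

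The CYP78A9 salt difference in pericycle was 1.06 ± 0.393 and did not pass (limma, adjusted p = 0.22). Without pericycle salt replicate 1 it was 1.53 ± 0.226 and passed (adjusted p = 0.0115). Leaving out that array also brought the difference of responses to 1.42 ± 0.292 (adjusted p = 0.0466), against 0.95 ± 0.528 with all arrays, and pericycle minus cortex under salt to 1.23 ± 0.206 (adjusted p = 2.90e-03), against 0.75 ± 0.352. The phloem marker OPS, at 6.51 to 7.80 in pericycle salt samples and 5.66 to 6.30 in pericycle control samples, had a difference of 1.10 ± 0.363 that did not pass (limma, adjusted p = 0.17). It is the only 1 of 7 listed phloem markers measured, and its part in this result was not tested.

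CYP51G2 (AT2G17330), a transcribed pseudogene of the sterol demethylase family, was at 2.16, 2.86 and 2.39 in pericycle salt samples and at 2.85 and 3.33 in pericycle control samples. It was at 3.24, 2.85 and 3.10 in cortex salt samples, against 2.34, 2.40 and 2.90 in cortex control samples. The groups overlapped in both cell types. Its salt differences were -0.62 ± 0.268 in pericycle and 0.52 ± 0.24 in cortex, and the difference of responses was -1.14 ± 0.36 (limma, adjusted p = 0.201), none of which passed. With array weights the cortex difference was 0.59 ± 0.157 and passed (adjusted p = 0.02).

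CYP71B22 (AT3G26200) separated the cell types in both conditions. It was at 2.75, 3.00 and 3.09 in pericycle salt samples, against 5.34, 5.51 and 5.59 in cortex salt samples. Without salt it was at 2.79 and 3.94 in pericycle samples, against 5.29, 5.49 and 5.82 in cortex samples. Pericycle arrays were lower throughout, with log2 differences of -2.17 ± 0.306 without salt, a size of 4.51-fold (limma, adjusted p = 1.24e-03), and -2.53 ± 0.274 under salt, a size of 5.78-fold (adjusted p = 1.87e-04). Pericycle values near the dim limit mean that these folds may be too small. Without pericycle salt replicate 1 the difference under salt was -2.43 ± 0.302. Both calls held under all 18 alternatives, and the salt difference in cortex was -0.05 ± 0.274.

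CYP71B23 (AT3G26210), the next annotated P450 gene, was at 1.81 and 1.76 in pericycle control samples, against 3.69, 3.14 and 2.85 in cortex control samples. It was lower in pericycle without salt, with a log2 difference of -1.44 ± 0.273, a size of 2.71-fold (limma, adjusted p = 6.15e-03), a call that held under the 17 alternatives in which it was tested. CYP71B23 is dim, with a mean of 2.46 over all arrays, so the removal of dim probe sets left it out. The fold may be too small. Under salt it was at 2.28, 1.75 and 1.91 in pericycle samples, against 2.95, 2.46 and 2.48 in cortex samples. Those arrays did not overlap, as for 19.1% of all probe sets in that direction, and the difference of -0.65 ± 0.244 did not pass (limma, adjusted p = 0.0996). Its salt difference in cortex was -0.60 ± 0.244 with overlapping arrays (adjusted p = 0.275).

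CYP71B37 (AT3G26330), at the other end of that row of genes, was the only member that passed as higher in pericycle, against 7.76% of all probe sets higher under salt. It is dim, with a mean of 2.46 over all arrays, and every cortex array was under the dim limit, so its differences may be too small. It was at 5.00, 3.01 and 2.62 in pericycle salt samples, against 1.61, 1.88 and 1.73 in cortex salt samples, a difference of 1.80 ± 0.495 (limma, adjusted p = 0.0308). Without pericycle salt replicate 1, the array at 5.00, it was 1.08 ± 0.199 (adjusted p = 4.79e-03). Leaving out any 1 of the cortex salt arrays, or fitting only the groups compared, ended the call, with adjusted p up to 0.104. Without salt it was at 2.92 and 2.65 in pericycle samples, against 1.78, 2.15 and 1.73 in cortex samples. That difference of 0.90 ± 0.553 did not pass (adjusted p = 0.356), and with pericycle salt replicate 1 left out it was 0.90 ± 0.199 and passed (adjusted p = 0.0106), as it did with only the groups compared (adjusted p = 0.0406).

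The other genes of the same row moved little. CYP71B21, the P450 gene on the other side of CYP71B22, was at 1.76 to 2.24 on all arrays, with cell type differences of -0.09 ± 0.186 without salt and 0.01 ± 0.166 under salt. Within each condition every pericycle array of CYP71B34 lay above every cortex array, with differences of 0.36 ± 0.267 without salt and 0.56 ± 0.239 under salt, with neither passing (limma, adjusted p = 0.464 and 0.151). The difference under salt passed with array weights (0.73 ± 0.238, adjusted p = 0.0454) and without pericycle salt replicate 3 (0.76 ± 0.23, adjusted p = 0.0445). CYP71B25, at 2.02 to 2.95, and CYP71B36, at 1.57 to 2.27, passed nowhere. Within the row, CYP71B22 and CYP71B23 were lower in pericycle, CYP71B37 was higher, and the other 8 did not pass.

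**Figure D4:**
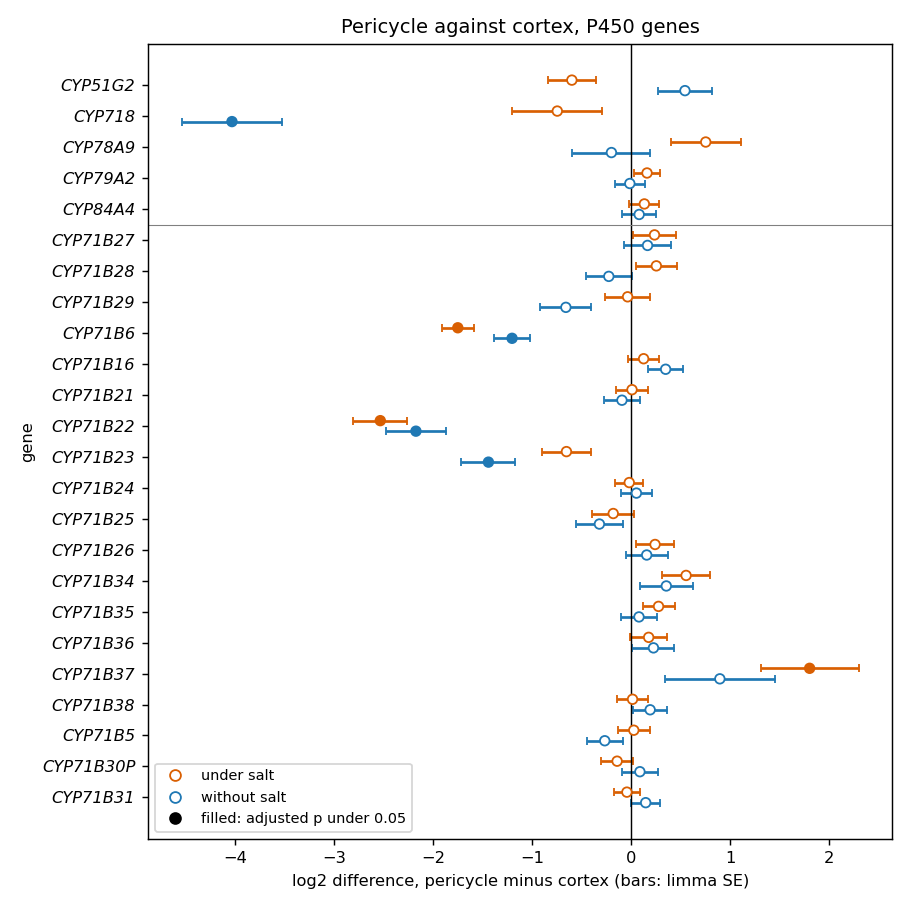
Log2 difference of pericycle minus cortex for the 24 P450 genes, under salt above without salt in each row, with limma SE as bars and filled points where the adjusted p was under 0.05. CYP718 lies at -4.03 without salt and at -0.74 under salt, while CYP71B6 and CYP71B22 are filled on the left in both conditions.

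CYP84A4 (AT5G04330), which acts in the synthesis of the alpha-pyrones called arabidopyrones, was at 3.17 to 3.32 in pericycle salt samples and 3.29 to 3.65 in pericycle control samples. In cortex it was at 2.99 to 3.26 in salt samples, against 3.29 to 3.43 in control samples. The cortex groups did not overlap, and the difference of -0.26 ± 0.153 did not pass (limma, adjusted p = 0.535). CYP71B5 stayed within 2.83 to 3.55 on all arrays, and its lowest value was in pericycle control replicate 1. CYP79A2 was at 1.61 to 1.97 on all arrays and its differences had a size of at most 0.17.

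Few other genes of the pathways that P450 enzymes serve had a probe set of their own in the probe table. Of 84 P450 symbols listed by role, 3 are those of members: CYP71B6, CYP78A9 and CYP79A2. Among genes of glucosinolate synthesis, 3 of 21 listed were measured. UGT74B1, the glucosyltransferase that follows the P450 steps, was higher in pericycle than in cortex without salt by 0.94 ± 0.212 (limma, adjusted p = 0.0149). Under salt its arrays overlapped, with a difference of 0.09 ± 0.189 (adjusted p = 0.811). BCAT4, of methionine chain elongation, was higher in pericycle by 2.00 ± 0.593 without salt (adjusted p = 0.0483) and by 2.82 ± 0.53 under salt (adjusted p = 4.87e-03). GSTU20, a tau-class glutathione transferase, was higher by 3.56 ± 0.469 under salt (adjusted p = 5.93e-04), and its difference of 1.06 ± 0.525 without salt did not pass (adjusted p = 0.238). Both genes were highest on pericycle salt replicate 1, at 6.36 for BCAT4, against 4.17 and 5.08 in the other pericycle salt samples. For GSTU20 it was 7.70, against 6.48 and 5.92. None of these 3 genes passed with salt in either cell type.

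Of 24 listed phenylpropanoid symbols, HCT and CCR2 were measured. HCT, the shikimate transferase beside the P450 that hydroxylates lignin precursors, was higher in pericycle by 2.09 ± 0.352 without salt (limma, adjusted p = 3.29e-03) and by 2.92 ± 0.315 under salt (adjusted p = 1.81e-04). CCR2, a cinnamoyl-CoA reductase gene, was higher in pericycle by 3.67 ± 0.718 under salt (adjusted p = 6.02e-03). It was highest on pericycle salt replicate 1, at 6.95, against 3.92 and 4.83 in the other pericycle salt samples. Without salt its difference of 1.35 ± 0.803 did not pass (adjusted p = 0.336). Neither HCT nor CCR2 passed with salt in either cell type. Of 8 listed coumarin symbols 3 were measured. Of these, 1 passed as lower with salt in both cell types, F6'H1, the feruloyl-CoA hydroxylase that starts scopoletin synthesis. Its differences were -2.29 ± 0.312 in pericycle and -2.27 ± 0.279 in cortex (limma, adjusted p = 0.0105 and 1.61e-03). It was also lower in pericycle than in cortex, with differences of -1.83 ± 0.312 without salt and -1.85 ± 0.279 under salt (adjusted p = 3.48e-03 and 1.34e-03). F6'H2, which is dim, was lower in every salt array in both cell types without passing. Its differences were -1.03 ± 0.274 in pericycle and -0.80 ± 0.245 in cortex (limma, adjusted p = 0.0918 and 0.12). Of all probe sets, 10.8% in pericycle and 14.8% in cortex had every salt array lower. BGLU42 overlapped in both cell types. The measured suberin gene FACT and the triterpene gene LUP5 passed in no comparison, and 0 of 15 listed symbols of P450 redox partners were measured.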

How the data were processed

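The log2 expression values deposited by the authors cover 22810 probe sets on each of 11 arrays. RMA and limma are named in the submitters' processing notes, with neither a role nor a version. The values ran from 0.893 to 13.9, with array medians of 3.41 to 3.59, low for default RMA, so values near the floor are uncertain. They were used as deposited, without the 64 control probe sets. Detection calls were not used, and the number of arrays limits precision.

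Genes came from the platform's probe table, and 13436 of 13513 probe sets with exactly 1 gene were matched to RefSeq (TAIR10.1). The table gave no gene for 8730 probe sets and several genes for 503. Genes without a probe set of their own in it count here as not measured, though they may be on the array. Among the 503, 2 probe sets naming a P450 were left out.

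All 11 arrays were fitted in limma 3.58.1 (R 4.3.3; group means, lmFit, contrasts.fit, eBayes), two-sided, with Benjamini-Hochberg adjustment over 22746 probe sets within a comparison and a threshold of 0.05. Errors of differences are limma standard errors. Alternatives were array weights, trend and robust eBayes, removal of dim probe sets, other scalings, a replicate block, the compared groups alone and leaving out each array. The procedure was tested on simulated data. Values are given for members that passed in a comparison, members of the role lists and, where none passed, those with the 3 largest differences in each direction. In families with 3 or more members, the member with the highest mean among those that passed nowhere was also named (CYP71B5). Others were named after their values were seen (CYP71B21, CYP71B25, CYP71B28, CYP71B34, CYP71B36, CYP84A4). CHI was dropped from the phenylpropanoid list because RefSeq gives that symbol to a chitinase gene. The members and lists were chosen with earlier results of these data known.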

Additional observations from a re-analysis of the deposited data

Results flagged for a closer look

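CYP718 differed with salt in opposite directions in the samples of both cell types: all 3 cortex salt arrays lay below all 3 cortex control arrays, and all 3 pericycle salt arrays lay above both pericycle control arrays. The difference of responses, pericycle minus cortex, was 3.29 ± 0.68 (log2, SE) and missed the threshold in limma (adjusted p = 0.0615). The lowest pericycle salt value, 5.58, was close to the higher pericycle control value, 5.49. In pericycle the salt difference was 1.21 ± 0.507 and did not pass (limma, adjusted p = 0.277). Without pericycle salt replicate 1 it was 0.62 ± 0.323. Of all probe sets, 10.2% had every pericycle salt array above both pericycle control arrays, and 14.8% had every cortex salt array below every cortex control array.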

How the results depend on the processing

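Counts of called members depended on the settings. The percentages are the shares of all probe sets called under the same setting. Salt in cortex gave 3 of 24 members (4.16%), 5 with array weights (21.0%), 4 with only the groups compared (19.7%), 1 with the replicate block (3.04%) and 1 to 3 without a single array (1.59% to 7.48%), the 1 being CYP71B6. With the block the adjusted p was 0.055 for CYP718 and 0.0889 for CYP71B29. Salt in pericycle gave 0 (1.99%), and 0 to 1 without a single array (0.805% to 4.94%). The difference of responses gave 0 (0.835%), 1 with array weights (0.659%), with trend and robust eBayes (0.734%) or with dim probe sets removed (1.22%), and 0 to 2 without a single array (0.233% to 2.79%). Pericycle against cortex gave 4 without salt (14.9%), and 4 to 5 without a single array (9.93% to 22.0%). Under salt it gave 3 (17.9%), 6 with array weights (22.8%), 4 with the replicate block (16.4%, CYP71B23 being added) and 2 to 5 without a single array (10.8% to 22.4%). Quantile normalization, equal array medians, the groups of the comparison alone, symbols of the probe table alone, all probe sets of each gene and counting the 2 cyclophilins, an alternative chosen after seeing the data, left each count within 1.5 times. No called difference changed sign. Replicate numbers are not tied across groups by the labels: same-numbered residuals correlated between -0.151 and 0.107. Leaving out a pericycle control array leaves 1, assumed to vary like the other groups.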

Other observations

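The 2 cyclophilin genes whose symbols resemble P450 names, prolyl isomerases rather than oxygenases, passed in no comparison in limma. CYP71 (AT3G44600) differed with salt by 0.48 ± 0.361 in pericycle and by 0.36 ± 0.323 in cortex. CYP59 (AT1G53720) differed by 0.20 ± 0.244 in pericycle and by 0.44 ± 0.218 in cortex. Every cortex salt array of CYP59 lay above every cortex control array, as for 19.3% of all probe sets.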
